A study of Mus musculus with 6 samples.

Results

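The genes described here are 6 genes through which cells take up folate and cobalamin: *Folr2*, *Folr1*, *Slc46a1*, *Slc19a1*, *Tcn2* and *Cd320*. They were taken by symbol from 24061 gene symbols counted by RNA-seq in sorted mouse mammary gland macrophages, and the set was chosen with measured values of the Lyve-1+ and Lyve-1- comparison in view. The subset differences of the 6 genes are therefore given as a description, with no test. All cells were CD45+CD11b+F4/80+ cells sorted from the inguinal (#4) mammary glands of FVB/N mice after removal of the lymph nodes, with no genetic change or treatment, and were split by surface Lyve-1 into a positive (Lyve-1+) and a negative (Lyve-1-) subset. Each subset had 3 libraries, and each library was 1 pool of cells from 4 mice. Replicate 1 of each subset came from 6-week-old mice and replicates 2 and 3 from 10-week-old mice, so age cannot be told apart from the single 6-week pool of each subset.

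Folate carries one-carbon units for the synthesis of nucleotides and for the methionine cycle, and mammalian cells cannot make it. It enters cells by endocytosis with glycosylphosphatidylinositol-anchored folate receptors, through the reduced folate carrier in the plasma membrane, or through the proton-coupled folate transporter, which also moves folate out of acidic endosomes. Cobalamin (vitamin B12) travels in blood bound to transcobalamin and is taken up as that complex by the transcobalamin receptor CD320. Folate receptor beta, the product of *Folr2*, is known as a marker of tissue-resident macrophages.

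*Folr2* and *Folr1* lie side by side on the minus strand of chromosome 7 (GRCm38, the build also called mm10), at chr7:101839988-101857194 and chr7:101858331-101870788, with 1136 bases between them. Their coding sequences, of 753 and 765 bases, were identical at 72.7% of 746 aligned bases. The stretch around the longest identical run of the coding sequences is shown because it bears on whether a read can be assigned to one receptor gene. Each line is 80 bases within 1 coding exon, at chr7:101843678-101843757 for *Folr2* and chr7:101863935-101864014 for *Folr1*, read 5′ to 3′ on the minus strand from GENCODE M21, and the capitals mark the longest run that both genes share.
Folr2: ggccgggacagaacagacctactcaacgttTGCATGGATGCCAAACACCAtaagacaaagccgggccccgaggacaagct
Folr1: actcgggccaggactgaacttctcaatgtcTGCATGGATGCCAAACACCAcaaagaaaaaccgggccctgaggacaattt
The shared run was 20 bases long, and 0 windows of 50 bases, the read length, were the same in the transcripts of both genes. A second source of shared sequence was the antisense gene *Gm10602*, which overlaps 975 exonic bases of *Folr2*. It held 834 of the 1585 distinct 50-base windows in *Folr2* transcripts (52.62%) and was not among the counted symbols. The strand setting of the counting is not given in the sources used here, so reads from *Folr2* and *Gm10602* cannot be told apart over that stretch. *Tcn2*, *Slc46a1*, *Slc19a1* and *Cd320* shared 0 such windows with other genes, and *Folr1* shared 10 of 2511 with *Gm18334*.

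*Folr2*, the folate receptor beta gene, had the widest difference between the subsets of the uptake genes. It had 34.7, 25.9 and 20.1 CPM (counts scaled by TMM to a common library size) in Lyve-1- replicates 1, 2 and 3. It had 487, 173 and 294 CPM in Lyve-1+ replicates 1, 2 and 3. The subsets did not overlap, and the lowest library of the Lyve-1+ cells was replicate 2. The means were 26.9 ± 7.34 CPM (SD, n = 3 pools) and 318 ± 158 CPM (SD, n = 3), so that the Lyve-1- level was 8.46% of the Lyve-1+ level. The fitted log2 fold change was 3.56 (SE 0.40). In bulk libraries, fewer cells that express a gene and less RNA of it per cell cannot be told apart.

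*Tcn2*, which encodes transcobalamin, the carrier that delivers cobalamin to cells, was the other uptake gene with separate subsets (chr11:3917192-3932159, minus strand). It had 53.3, 38.6 and 57.4 CPM in Lyve-1- replicates 1, 2 and 3, and 369, 201 and 222 CPM in Lyve-1+ replicates 1, 2 and 3. Again no Lyve-1- library reached a Lyve-1+ library, and in both genes Lyve-1+ replicate 1, from 6-week-old mice, was the highest of all. The means were 49.8 ± 9.87 CPM (SD, n = 3) and 264 ± 91.7 CPM (SD, n = 3), with a log2 fold change of 2.41 (SE 0.33). The Lyve-1- level of *Tcn2* was thus 18.9% of the Lyve-1+ level. Libraries of the subsets did not overlap, with higher values in Lyve-1+ cells, for 2 of the 6 uptake genes and for 7.82% of the 13348 genes tested, and since the genes were chosen on this contrast nothing is read from that count.

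**Figure D1:**
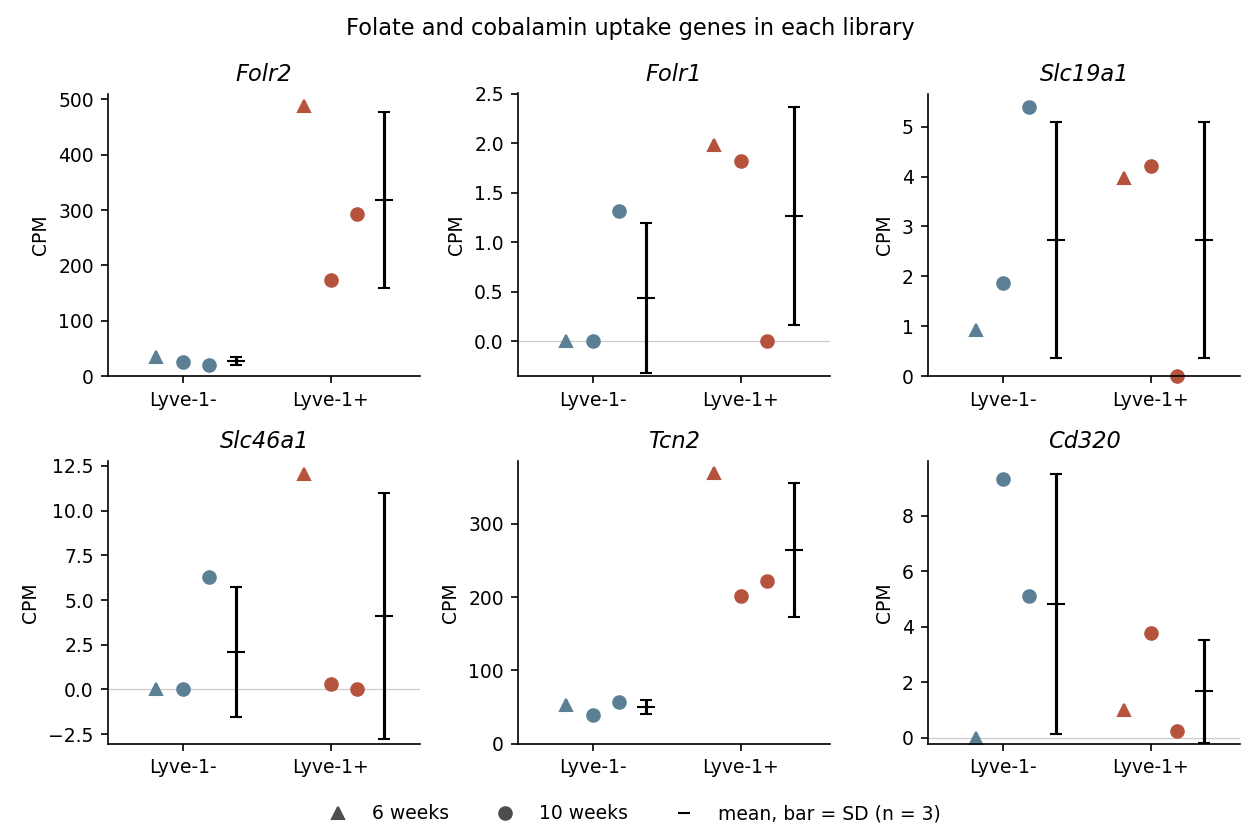
CPM of the 6 uptake genes (y axis, a separate linear scale per gene) in the 3 Lyve-1- and 3 Lyve-1+ libraries, with triangles for 6-week and circles for 10-week pools and black bars for the mean and SD (n = 3). *Folr2* runs from 20.1 to 34.7 CPM in Lyve-1- and from 173 to 487 CPM in Lyve-1+ libraries, while libraries of both subsets overlap in *Folr1*, *Slc46a1*, *Slc19a1* and *Cd320*.

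Levels of different genes were compared only as CPM per kb of exon. On this scale *Folr2* stood at 22.4, 16.8 and 13.0 in Lyve-1- replicates 1, 2 and 3 and at 315, 112 and 190 in Lyve-1+ replicates 1, 2 and 3. *Tcn2* stood at 24.5, 17.7 and 26.4 in the Lyve-1- libraries and at 170, 92.4 and 102 in the Lyve-1+ libraries. With the union of exons as length, *Folr2* thus stood below *Tcn2* in each Lyve-1- library and above it in each Lyve-1+ library. The per-length level of *Folr2* over that of *Tcn2* was 0.918, 0.946 and 0.493 in Lyve-1- replicates 1, 2 and 3 and 1.86, 1.21 and 1.87 in Lyve-1+ replicates 1, 2 and 3. Using the longest transcript shortens *Folr2* from 1546 to 1204 bases and *Tcn2* from 2178 to 2027, which raises *Folr2* relative to *Tcn2*. With that length the Lyve-1- means were 22.4 (SD 6.10) for *Folr2* and 24.6 (SD 4.87) for *Tcn2*. The order in single Lyve-1- libraries therefore depends on the length used. Among 23691 symbols with a known exon length, *Folr2* ranked 101, 303 and 165 from the top in Lyve-1+ replicates 1, 2 and 3, and 1986, 2559 and 3021 in the Lyve-1- replicates. *Tcn2* ranked 197, 375 and 336 in the Lyve-1+ and 1834, 2430 and 1470 in the Lyve-1- libraries.

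The remaining uptake genes were far below this level in both subsets. Their mean per-length levels in Lyve-1+ cells were 1.33 CPM per kb for *Slc46a1*, 0.587 for *Slc19a1*, 0.581 for *Cd320* and 0.552 for *Folr1*, against 206 for *Folr2* and 121 for *Tcn2*. In Lyve-1- cells the order was *Tcn2* (22.9), *Folr2* (17.4), *Cd320* (1.67), *Slc46a1* (0.678), *Slc19a1* (0.587) and *Folr1* (0.190). Across the pools of a subset the ranges of *Folr2* and *Tcn2* overlapped, and so did those of the 4 low genes among themselves. Only the step between these groups was thus wider than the spread between pools. Within single libraries *Folr2* and *Tcn2* kept the order given above for the union of exons.

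*Folr1* encodes folate receptor alpha, which is best known in epithelia. It had 0, 0 and 9 raw counts in Lyve-1- replicates 1, 2 and 3 and 26, 38 and 0 in Lyve-1+ replicates 1, 2 and 3. The subsets overlapped at 0, and a count of 0 allows up to 3 counts, or 0.252, 0.267 and 0.378 CPM in the 3 libraries at 0 (replicates 1 and 2 of the Lyve-1- and replicate 3 of the Lyve-1+ subset), a limit that covers counting error only.

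*Slc46a1*, the proton-coupled folate transporter gene (chr11:78465697-78472059, plus strand), had 0, 0 and 43 counts in Lyve-1- replicates 1, 2 and 3 and 158, 6 and 0 in Lyve-1+ replicates 1, 2 and 3. Most of its counts came from 1 library, and it was the uptake gene that did not pass the filter on low counts. *Slc19a1*, the reduced folate carrier gene (chr10:77032241-77061002, plus strand), had 11, 21 and 37 counts in the Lyve-1- and 52, 88 and 0 in the Lyve-1+ libraries. Its mean was 2.73 CPM in both subsets, with an SD of 2.36 in each, and the single library without a count was Lyve-1+ replicate 3.

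*Cd320*, the gene of the transcobalamin receptor (chr17:33843091-33849774, plus strand), had 0, 105 and 35 counts in Lyve-1- replicates 1, 2 and 3 and 13, 79 and 2 in Lyve-1+ replicates 1, 2 and 3. This was 4.81 ± 4.67 CPM (SD, n = 3) against 1.68 ± 1.86 CPM (SD, n = 3), and the libraries overlapped. The highest *Cd320* level in a library was 3.24 CPM per kb, and the lowest level of *Tcn2*, the gene of the protein it binds, was 17.7. No fold change is given for the 4 low genes because the larger SD exceeded the difference between the means in each.

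Counts of *Folr1* and *Slc46a1* were confined to libraries that also differed in another feature. Olfactory receptor genes, which are best known from the olfactory epithelium, had a count for 4, 34 and 652 of 1114 genes in Lyve-1- replicates 1, 2 and 3 and for 370, 134 and 5 in Lyve-1+ replicates 1, 2 and 3. *Folr1* and *Slc46a1* had counts only in the 3 libraries with the most such genes, Lyve-1- replicate 3 and Lyve-1+ replicates 1 and 2. At the density of counts per kb over the receptor genes of Lyve-1- replicate 3, the exons of *Folr1* would hold 6.06 counts, beside the 9 observed. In Lyve-1+ replicates 1 and 2 that density gave 2.33 and 2.68 counts for *Folr1*, beside 26 and 38. For *Slc46a1* it gave 8.13 counts beside 43 in Lyve-1- replicate 3 and 3.13 beside 158 in Lyve-1+ replicate 1, but 3.60 beside 6 in Lyve-1+ replicate 2. *Slc19a1* and *Cd320* also had counts in libraries with few receptor genes. *Slc19a1* had 12.3 counts at that density beside 37 in Lyve-1- replicate 3, and its highest count, 88 in Lyve-1+ replicate 2, stood beside 5.42. *Cd320* had its highest count, 105, in Lyve-1- replicate 2, where the density gave 0.268. For *Folr2* it gave at most 4.08 counts in any library, beside at least 138. The density is a mean over all 1114 receptor genes, while the counts lay in part of them. Lyve-1- replicate 3 had 9406 counts in 652 receptor genes. Lyve-1+ replicates 1 and 2 had 3617 counts in 370 and 4160 counts in 134 receptor genes. A receptor gene with a count could thus hold more than the density gives, so the density is no upper limit for a single gene. The part of the receptor-gene reads in the low counts was not tested.

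**Figure D2:**
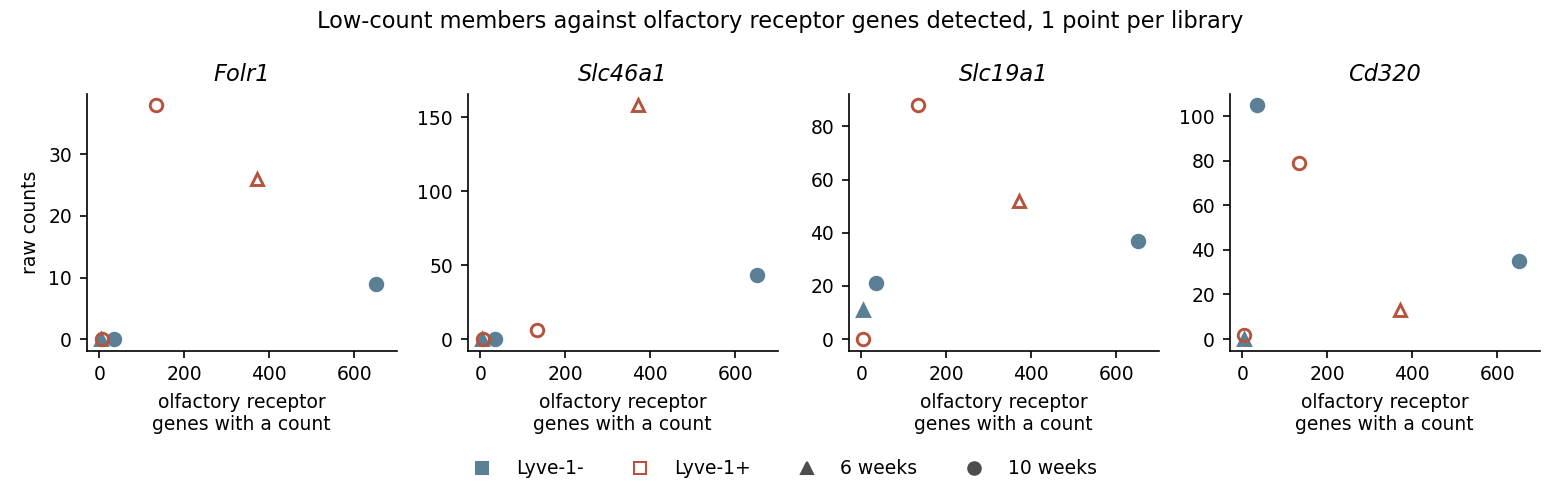
Raw counts of *Folr1*, *Slc46a1*, *Slc19a1* and *Cd320* (y axis) against the number of 1114 olfactory receptor genes with at least 1 count (x axis), with 1 point per library, filled for Lyve-1-, open for Lyve-1+, triangles for 6 weeks and circles for 10 weeks. *Folr1* and *Slc46a1* lie at 0 in the 3 libraries with 4, 5 and 34 receptor genes.

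*Lyve1*, the gene of the sorted surface protein, had 17, 75 and 51 counts in Lyve-1- and 30871, 16441 and 4735 counts in Lyve-1+ replicates 1, 2 and 3, as the labels say. The libraries held 6478007 to 21406839 counts in total. Macrophage markers summed to between 4855 and 7480 CPM in Lyve-1- and between 5849 and 7232 CPM in Lyve-1+ libraries, over 9 of 9 genes. The sums overlapped, but single macrophage markers differed. Of the 9, edgeR called 0 between the subsets, 4 had an unadjusted p under 0.05 by edgeR and DESeq2 called 1. Summed markers of some other cells did not overlap between the subsets. Over 9 of 9 fibroblast markers the sum was 1014 to 1194 CPM in Lyve-1- and 1776 to 7040 CPM in Lyve-1+ libraries, and over 6 of 6 dendritic cell markers it was 333 to 1362 CPM and 45.8 to 214 CPM. Over 6 of 6 T cell and NK cell markers it was 55.5 to 96.9 CPM in Lyve-1- and 8.84 to 53.3 CPM in Lyve-1+ libraries. None of these markers was at 0 in every library. By edgeR, 0 of the 9 fibroblast, 0 of the 6 dendritic cell and 0 of the 3 tested T cell and NK cell markers were called between the subsets, while 5, 2 and 1 had an unadjusted p under 0.05 and DESeq2 called 3, 1 and 0. Over all 13348 genes tested, edgeR called 84 and 1027 had an unadjusted p under 0.05 by edgeR, and DESeq2 called 254. Lyve-1+ replicate 3 had the highest fibroblast sum, with *Folr2* at 294 and *Tcn2* at 222 CPM, both between the values of the other Lyve-1+ libraries. The part of these cells in the levels of *Folr2* and *Tcn2* was not tested. Among lymphatic endothelial markers, *Ccl21a* was at 0 in every library, and the sum of 6 genes was 14.6 to 60.2 CPM in Lyve-1- and 17.1 to 42.7 CPM in Lyve-1+ libraries. Over 4 of 5 neutrophil markers the sum was 72.3 to 108 CPM in Lyve-1- and 82.5 to 448 CPM in Lyve-1+ libraries, highest in replicate 3. Of these 4, edgeR called 0, 2 had an unadjusted p under 0.05 by edgeR and DESeq2 called 1.

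Age was not used to choose the genes and the 10-week pools were tested against the 6-week pools with a term for the subset. *Folr2* had a log2 difference of -0.83 (SE 0.32, unadjusted p = 0.0174, edgeR adjusted p = 1.0), and *Tcn2* one of -0.49 (SE 0.32, edgeR adjusted p = 1.0). In both subsets the 6-week pool had the highest *Folr2* level, whereas for *Tcn2* this held in Lyve-1+ cells and not in Lyve-1- cells. Of the 5 uptake genes tested, 0 were called for age by edgeR at an adjusted p under 0.05, beside 0.0225% of all genes called, and 1 had an unadjusted p under 0.05, beside 444 of 13348 genes. DESeq2 called 0 uptake genes and 30 genes in all for age. The standard errors of *Folr1*, *Slc19a1* and *Cd320* were between 3.09 and 4.07 on the log2 scale, so that an age difference in them was not detectable.

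The subset difference itself was compared between the ages as an interaction. *Folr2* was 14.0 times higher in Lyve-1+ than in Lyve-1- cells in the 6-week pools, and 6.69 and 14.6 times higher between the 10-week libraries numbered 2 and 3. *Tcn2* was 6.93 times higher at 6 weeks and 5.21 and 3.86 times higher at 10 weeks. The 10-week libraries were matched by number only, and since the labels give no pairs, another match would give other ratios. The interaction was -0.47 for *Folr2* (SE 0.67, edgeR adjusted p = 0.990) and -0.65 for *Tcn2* (SE 0.65, edgeR adjusted p = 0.976). With edgeR, 0 of the 5 uptake genes were called and 0 had an unadjusted p under 0.05, beside 0.00749% of all genes called, which was the single gene *Lyve1*, and 613 genes with an unadjusted p under 0.05. With DESeq2, 0 of the 5 uptake genes and 47 of all genes were called.

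Among the 5 genes whose pattern over the 6 libraries was most like that of *Folr2*, by Pearson's r of log2 CPM, were *Plekhg5* (r = 0.997), *Hpse* (r = 0.994), *Rcn3* (r = 0.992) and *Rhob* (r = 0.992). *Hpse* encodes the enzyme heparanase and *Rhob* a small GTPase. Closest to *Tcn2* were *Cd209g* (r = 0.996), *Hspa5* (r = 0.992), *Lrp6* (r = 0.992), *Ednrb* (r = 0.988) and *Exoc7* (r = 0.988). *Cd209g* encodes a C-type lectin and *Ednrb* the endothelin receptor type B. A higher mean level in Lyve-1+ cells follows from this choice, because *Folr2* and *Tcn2* were chosen for that difference, and the points share the libraries and their depth. *Folr2* and *Tcn2* had r = 0.976 with each other over the 6 libraries, which placed *Tcn2* at rank 27 in likeness to *Folr2*. A high r between these 2 genes also follows from their choice, since both carry the subset difference, so nothing is read from it. An r over 0.95 was reached by 74 genes with *Folr2* and by 54 genes with *Tcn2*.

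**Figure D3:**
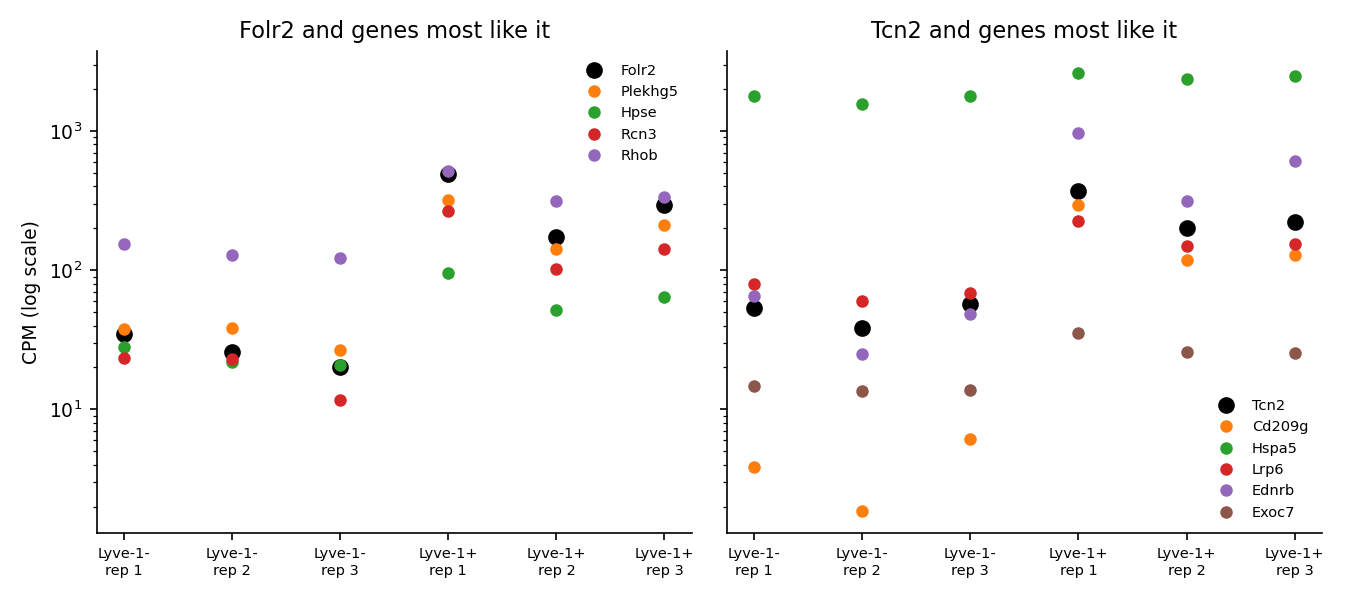
CPM on a log axis (y) in the 6 libraries (x) for *Folr2* and *Tcn2* in black and for the named genes most like each in colour, with 1 point per gene and library. Lyve-1+ replicate 1 is the highest library for *Folr2* (487 CPM) and *Tcn2* (369 CPM), and the size of the subset difference varies between the genes shown.

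The nearest counted gene on each side of *Folr2* overlapped between the subsets. *Folr1*, its neighbour on the same strand, reached at most 0.862 CPM per kb in a library, while *Folr2* had at least 13.0. *Inppl1*, on the other side, had 1331, 1320 and 598 counts in Lyve-1- replicates 1, 2 and 3 and 1212, 1536 and 519 in Lyve-1+ replicates 1, 2 and 3. RefSeq gives *Folr2* 2 start sites on GRCm38.p6, and both windows, from 250 bases before to 50 bases after the start, are shown because *Folr2* had the widest subset difference and both hold the half-site of MAF family factors. The first is chr7:101845282-101845581 and the second chr7:101857141-101857440, both on the minus strand and read 5′ to 3′, with the half-site TGCTGA in capitals.
Folr2 start 1: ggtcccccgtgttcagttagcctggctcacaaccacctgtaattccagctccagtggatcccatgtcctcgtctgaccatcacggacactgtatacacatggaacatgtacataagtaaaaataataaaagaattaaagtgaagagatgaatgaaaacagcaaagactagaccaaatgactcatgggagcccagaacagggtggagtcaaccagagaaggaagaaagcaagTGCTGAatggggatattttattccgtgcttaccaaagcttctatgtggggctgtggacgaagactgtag
Folr2 start 2: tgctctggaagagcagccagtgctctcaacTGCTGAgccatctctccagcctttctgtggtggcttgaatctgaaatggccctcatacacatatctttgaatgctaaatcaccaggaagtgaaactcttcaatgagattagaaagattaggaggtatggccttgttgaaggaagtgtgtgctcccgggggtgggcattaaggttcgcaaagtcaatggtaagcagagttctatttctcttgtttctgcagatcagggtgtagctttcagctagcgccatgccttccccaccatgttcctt
The half-site began at position -19 from the first start and at -220 from the second. TGCTGA occurred on either strand in 19.48% of 32851 RefSeq promoter windows. It was not found in the windows of *Slc46a1*, *Slc19a1* and *Cd320*, in which the PU.1-type core GAGGAA (28.28% of all windows) was found once, on the minus strand of a *Cd320* window at position -160, and the TATA box TATAAA (13.62%) was not found. Promoter windows of *Tcn2* and *Folr1* were not available, so these genes were not scanned. No match of one motif overlapped a match of another. A match of these letters is a description of the sequence and no binding was measured.

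Other genes of folate and cobalamin handling were read from lists by function and were tested in the fit of Lyve-1+ against Lyve-1- cells, in which 0.45% of the 13348 genes were called higher and 0.18% lower at an adjusted p under 0.05 and the median log2 fold change was -0.01. No gene of these lists was called in the direction of *Folr2* and *Tcn2*. Of 10 tested genes for other carriers, exporters and receptors, 0 were called by edgeR or DESeq2 and 0 had an unadjusted p under 0.05, with a median log2 fold change of 0.50 that ran from 0.18 to 1.13 with single libraries left out. *Slc25a32*, which encodes the mitochondrial folate carrier, had the highest value at 2.61 (SE 1.36, edgeR adjusted p = 0.737), with 35, 5 and 22 counts in Lyve-1- and 117, 166 and 187 in Lyve-1+ libraries. *Abcc2*, an exporter gene, had the lowest at -3.85 (SE 2.28, edgeR adjusted p = 0.862), or -2.22 when replicate 3 of the Lyve-1- subset and -6.39 when replicate 1 of the Lyve-1+ subset was left out. DESeq2 gave no adjusted p for *Slc25a32* and *Abcc2*, so it could not call them.

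Folate retention and the folate cycle were represented by 22 tested genes, of which 0 were called by edgeR or DESeq2 and 1 had an unadjusted p under 0.05, with a median of -0.27 that ran from -0.61 to -0.01 with single libraries left out. *Fpgs*, which adds the glutamate tail that keeps folate in cells, had the highest value at 1.84 (SE 1.27, edgeR adjusted p = 0.955), and this rested on Lyve-1+ replicate 3, without which it was -0.14. *Ftcd* had the lowest at -2.77 (SE 2.90, edgeR adjusted p = 1.0), or -1.47 when replicate 3 of the Lyve-1- subset and -7.76 when replicate 1 of the Lyve-1+ subset was left out. Cobalamin handling inside the cell had 12 tested genes, 0 called by either tool and 1 with an unadjusted p under 0.05, and a median of 0.34. *Pccb*, a subunit of propionyl-CoA carboxylase, had the highest value at 1.77 (SE 1.55, edgeR adjusted p = 1.0) and *Mtrr*, methionine synthase reductase, the lowest at -0.57 (SE 1.48, edgeR adjusted p = 1.0). DESeq2 gave no adjusted p for *Fpgs*, *Ftcd*, *Pccb* and *Mtrr*, so it could not call these genes. *Mtr*, the cobalamin-dependent methionine synthase that joins both pathways, had 437, 1136 and 248 counts in Lyve-1- and 1508, 1270 and 491 in Lyve-1+ libraries, with a log2 fold change of 0.45 (SE 0.45, edgeR adjusted p = 1.0), and was chosen after its values were seen.

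The methionine cycle held the single call. *Ahcy*, the gene of adenosylhomocysteinase, which clears the product of methylation reactions, fell by 6.35 on the log2 scale in Lyve-1+ cells (SE 1.24, edgeR adjusted p = 0.0348). It had 545, 424 and 35 counts in Lyve-1- replicates 1, 2 and 3 and 4, 14 and 0 in Lyve-1+ replicates 1, 2 and 3, and the call was lost when Lyve-1- replicate 1, Lyve-1- replicate 2 or Lyve-1+ replicate 1 was left out (edgeR adjusted p between 0.0536 and 0.0837) or when the 10-week libraries were fitted alone (edgeR adjusted p = 0.476). Of the 2799 distinct 50-base windows in *Ahcy* transcripts, 68.7% also occurred in 4 other genes, most of them in *Gm4737*, so its counts are uncertain. Of the 7 genes tested in this list, 1 was called lower and 0 higher, 3 had an unadjusted p under 0.05, beside 1027 of the 13348 genes tested, and the median was -0.53. *Bhmt* had the highest value at 2.54 (SE 2.56, edgeR adjusted p = 1.0), or -0.82 without Lyve-1+ replicate 3, and DESeq2 gave no adjusted p for it.

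**Figure D4:**
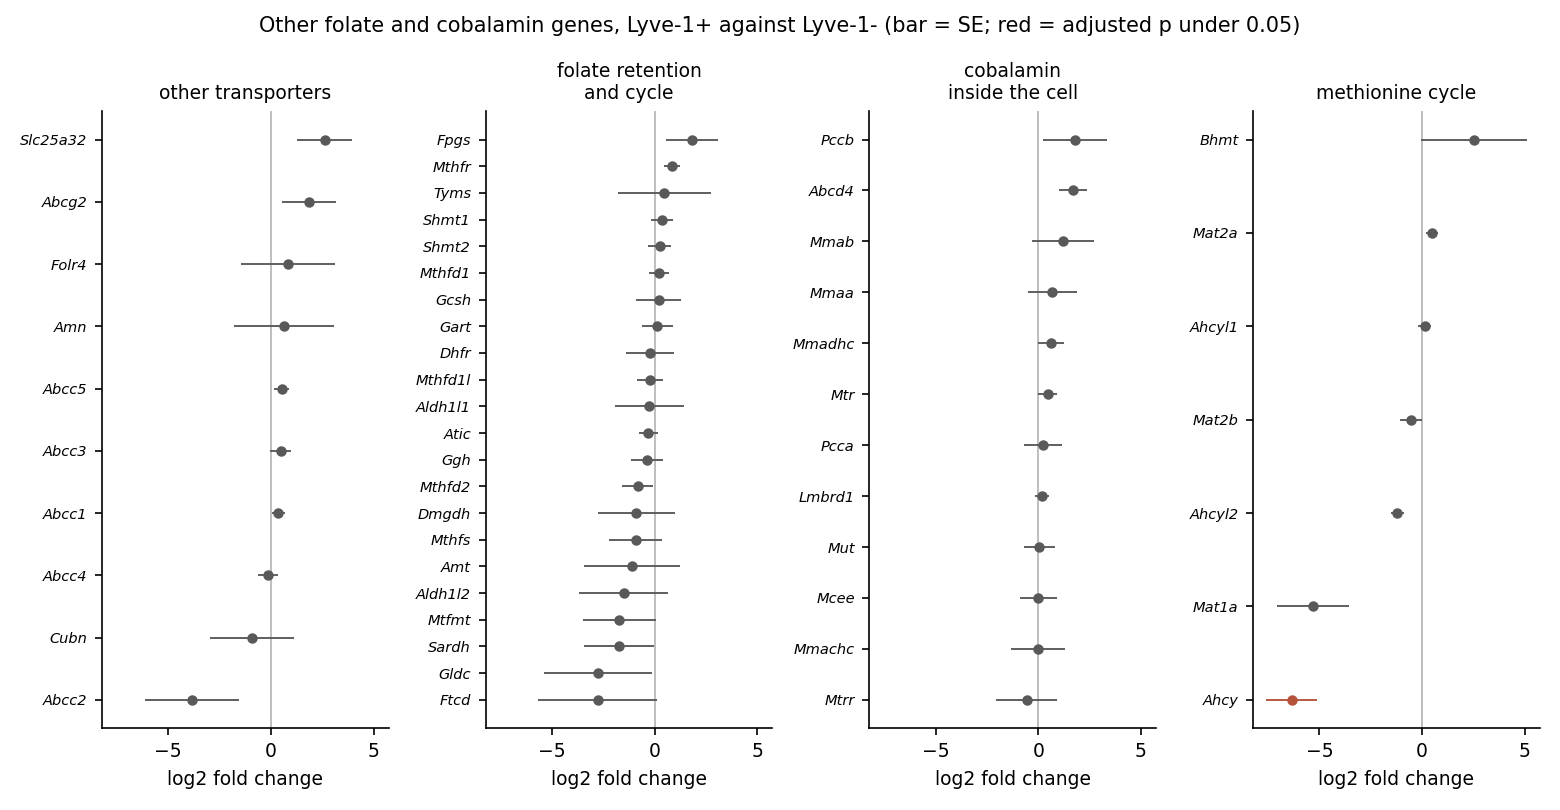
Log2 fold change of Lyve-1+ against Lyve-1- cells (x axis, points with bars of 1 SE) for the tested genes of the 4 lists (y axis, 1 gene per row). *Ahcy*, in red at -6.35, is the single gene with an adjusted p under 0.05, and the bars of most genes with few counts are wide.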

How the data were processed

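RNA from the sorted Lyve-1+ and Lyve-1- subsets of F4/80+ cells was sequenced in 6 libraries, each a pool of 4 mice. The authors made the libraries with a stranded total RNA kit, mapped paired 50-bp reads to mm10 with HISAT2 2.0.2, counted reads per gene symbol with featureCounts 1.5.0 and deposited raw counts, which are whole numbers without normalization. A 6-week library that the methods describe as an outlier was not analysed here. The annotation and strand setting of the counting are not given in the sources used here.

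Symbols were matched to GENCODE M21 (22749 directly, 942 through a RefSeq synonym and 370 without a match), from which positions and exon lengths (the union of exons) were taken. Counts were filtered with filterByExpr by subset, scaled by TMM and fitted with the quasi-likelihood test of edgeR 4.0.16 in R 4.3.3, with Benjamini-Hochberg adjustment over 13348 genes and a limit of 0.05. The subset was the only term. Age was tested with subset as a second term, and then with their interaction. DESeq2 1.42.0 was an alternative. The alternatives also covered normalization, filters, a replicate block, age, 10-week libraries alone and libraries left out. Library totals ran from 6478007 to 21406839 counts. The common biological coefficient of variation was 0.931. The fit was also run on counts simulated from its own means, with its own per-gene dispersions or a fixed one, and no result here rests on that run.

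Named genes were all 6 uptake genes, the called genes and both extremes of each list, the 5 genes most like *Folr2* and the 5 most like *Tcn2* in log2 CPM (prior count 2), and *Lyve1*. Of the genes most like *Folr2*, 1 is not reported here. The genes and lists were chosen with earlier results of these data known. The labels give pools but not their pairing across subsets, and p-values measure the spread between these pools. Reads carried no molecular identifiers, so limits for a count of 0 cover counting error only.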

Additional observations from a re-analysis of the deposited data

Results flagged for a closer look

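*Lyve1* is the gene of the surface protein used for the sort and was read here as the check of the labels. Its subset difference was smaller at 10 than at 6 weeks by a test of the interaction (log2 -4.06, SE 0.58, edgeR adjusted p = 0.0466). The Lyve-1+ libraries were 1647 times higher than the Lyve-1- libraries between the 6-week pools and 118 and 80.2 times higher between the 10-week libraries numbered 2 and 3. The 10-week libraries were matched by number only, as the labels give no pairs. Each subset has 1 library at 6 weeks, and the Lyve-1- library of that age had 17 *Lyve1* counts. In alternatives added after the data were seen, the adjusted p was 6.16e-07 with DESeq2 (log2 -4.02), 2.81e-05 with no filter and 0.0552 with total library size (log2 -4.12), and the count of genes called for the interaction was 47, 19 and 0. *Folr2* and *Tcn2* did not pass this test in any of these fits.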

How the results depend on the processing

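The higher level of *Folr2* and *Tcn2* in Lyve-1+ cells kept its direction in all 15 alternatives. Both genes were chosen on this contrast and their subsets did not overlap, so no support is drawn from the kept direction. With libraries left out singly, *Folr2* ranged from 3.12 to 3.83 and *Tcn2* from 2.10 to 2.55. Without Lyve-1- replicate 3 and Lyve-1+ replicate 1 together, *Folr2* was 2.93. With the longest transcript as length, *Folr2* in Lyve-1- cells was 22.4 and *Tcn2* 24.6 CPM per kb. Their order in single Lyve-1- libraries depended on the length used.

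The count of genes called between the subsets, 84 (60 higher), was 254 (139) with DESeq2, 289 (169) with no filter, 130 (79) with age as a covariate, 39 (23) in the 10-week libraries, 3 without Lyve-1- replicate 3 and Lyve-1+ replicate 1 together and 15 (14) at the limits of the study (adjusted p under 0.01, with a log2 difference of 1 to 10 in size). It ranged from 19 to 153 with libraries left out singly, with 19 when replicate 3 of the Lyve-1- subset was left out and 49, 153 and 133 when replicates 1, 2 and 3 of the Lyve-1+ subset were. The replicate block gave 270 (155) and 2 methionine genes called lower, but deviations of same-numbered libraries had correlations of -0.046, -0.002 and -0.147, so the numbers were not taken as pairs, and the *Folr2* difference was 3.47 with the block.

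The methionine cycle had 2 genes called lower with DESeq2 and with no filter. It had 0 with at least 10 counts in every library, in the 10-week libraries, without the 2 libraries together and at the limits of the study, and 0 to 1 with libraries left out singly. Its median of -0.53 was -0.22 with at least 10 counts, -0.24 in the 10-week libraries, -1.03 without the 2 libraries together and from -0.76 to 0.30 with libraries left out singly (0.30 and 0.14 without replicates 1 and 2 of the Lyve-1- subset). The median of the other transporters, 0.50, ran from 0.18 without replicate 1 to 1.13 without replicate 3 of the Lyve-1- subset (0.27 without replicate 2), and that of the folate cycle, -0.27, from -0.61 without replicate 2 of the Lyve-1+ subset to -0.01 without replicate 2 of the Lyve-1- subset, and it was 0.11 with at least 10 counts in every library. The cobalamin median of 0.34 was 0.76 in the 10-week libraries and from 0.24 to 0.68 with libraries left out singly. With libraries left out singly, *Fpgs* ran from -0.14 to 2.34 and *Bhmt* from -0.82 to 9.67, with both lowest values without Lyve-1+ replicate 3. For age, the 3 genes called became 30 with DESeq2, 5 with total library size and 19 with no filter, and from 2 to 35 with libraries left out singly (13, 18 and 2 without replicates 1, 2 and 3 of the Lyve-1- subset, 35 and 27 without replicates 2 and 3 of the Lyve-1+ subset), with 0 uptake genes called in each. The cause was not tested. The wide spread between pools and counts below 160 per library limit the 4 low genes.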
